A study of Mus musculus with 48 samples.

Results

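The transforming growth factor beta (TGF-beta) ligands Tgfb1, Tgfb2 and Tgfb3, their receptors Tgfbr1, Tgfbr2 and Tgfbr3, and the activin subunit genes Inhba and Inhbb were followed across the hair cycle of mouse skin. These 8 genes, out of 46983 genes in the 2 expression tables, were taken by gene symbol, and all 8 passed the filter on low values in both tables. The samples were C57BL/6 mouse skin with no treatment or engineered allele named, and the labels give no age. Whole skin was dissected from the chin, the ventrum and the dorsum in 3 anagen stages (early, mid and late), catagen, refractory telogen and competent telogen, which gave 43 libraries in 18 groups of 2 or 3. A second table of 7 libraries held telogen ear skin (n = 2), the ear cartilage/muscle complex (n = 3) and the same 2 dorsal competent telogen libraries. The study asked how the domains of the skin differ in their timing and in their signals. Nothing in the labels tied replicates to separate animals, so the p-values measure only the spread between these libraries, which may be technical.

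TGF-beta ligands are secreted in a latent form held by matrix proteins and, once released, bind the type II receptor Tgfbr2, which recruits the type I receptor kinase Tgfbr1. Tgfbr3, or betaglycan, is a co-receptor without a kinase that presents ligand, Tgfb2 in particular. Inhba and Inhbb encode the beta A and beta B subunits, which pair to form activins or join the alpha subunit Inha to form inhibins. Both branches signal through Smad2 and Smad3. In the hair follicle, Tgfb2 is made by the dermal papilla and takes part in the activation of stem cells at anagen onset, Tgfb1 is known from the regression of the follicle in catagen, and the activin antagonist follistatin (Fst) influences follicle growth.

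In GENCODE annotation of GRCm38 the 8 genes lay at separate places. Tgfb1 was on chr7:25687002-25705077 (plus strand), Tgfb2 on chr1:186622792-186705989 (minus) and Tgfb3 on chr12:86056745-86079041 (minus). Tgfbr1 was on chr4:47353222-47414931 (plus), Tgfbr2 on chr9:116084293-116175360 (minus) and Tgfbr3 on chr5:107106570-107289629 (minus). Inhba was on chr13:16011851-16031621 (plus) and Inhbb on chr1:119415465-119422248 (minus). All 8 were annotated as protein-coding. The 3′ end of Tgfb3 overlapped Ttll5 on the other strand, which was at 1.12 to 4.38 FPKM (fragments per kilobase of transcript, scaled to library depth) in the skin libraries. Since no strand setting is given for the counting, reads of Tgfb3 and Ttll5 over that overlap cannot be told apart. Gm42900, inside Tgfbr3 on the same strand, was at 1.9 to 9.61 FPKM in the skin libraries, and no strand setting would separate their reads over that overlap.

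The sequence just before the annotated start is shown for 4 members, because the levels of Tgfb2 and Tgfbr2 were correlated over the 18 groups (r = 0.81) while those of Inhba and Inhbb, whose products can pair, were weakly so (0.21). RefSeq windows of 150 bases (GRCm38.p6) were available for 6 of the 8 members, leaving out Tgfb3 and Tgfbr3. Capitals mark matches, on either strand, to the TATA box TATAAA, the E-box CACGTG, the Smad-binding half-site CAGAC or the CCAAT box. The windows are printed 5′ to 3′ along the strand of the gene.
Tgfb2: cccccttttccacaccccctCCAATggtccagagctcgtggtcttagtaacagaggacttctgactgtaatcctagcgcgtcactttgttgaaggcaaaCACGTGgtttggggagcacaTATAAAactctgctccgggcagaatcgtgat
Tgfbr2: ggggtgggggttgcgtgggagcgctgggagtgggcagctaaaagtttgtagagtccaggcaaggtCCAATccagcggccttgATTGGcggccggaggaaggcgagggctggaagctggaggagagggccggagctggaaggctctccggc
Inhba: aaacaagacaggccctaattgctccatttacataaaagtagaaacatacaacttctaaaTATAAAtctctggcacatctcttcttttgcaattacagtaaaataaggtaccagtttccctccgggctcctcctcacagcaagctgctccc
Inhbb: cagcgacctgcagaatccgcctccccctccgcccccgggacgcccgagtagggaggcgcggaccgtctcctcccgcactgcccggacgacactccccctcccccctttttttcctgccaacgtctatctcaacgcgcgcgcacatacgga
The Tgfb2 window (chr1:186705990-186706139, minus strand) held a CCAAT box, an E-box and a TATA box. The Tgfbr2 window (chr9:116175364-116175513, minus) held 2 CCAAT boxes, 1 on each strand. The Inhba window (chr13:16011701-16011850, plus) held a TATA box, and the Inhbb window (chr1:119422249-119422398, minus) held none of the 4 motifs. Over 32851 windows of the same length, the TATA box was present in 7.57%, the E-box in 4.3%, the Smad-binding half-site in 27.7% and the CCAAT box in 24.5%. No half-site was present in these 4 windows. The GC content was 51.3% for Tgfb2, 66.0% for Tgfbr2, 40.7% for Inhba and 68.7% for Inhbb. A match describes the letters of the window and nothing more.

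The libraries held an estimated 6720000 to 28980000 fragments (median 12970000), worked out from the smallest steps of the values. The labels of some groups went against the markers. Proliferation markers (Mki67, Top2a, Ccnb1, Cdk1 and Birc5) summed to 142.63 to 328.89 FPKM in competent telogen against 37.31 to 52.64 in refractory telogen. In ventral early anagen they summed to only 26.17 to 38.27 FPKM, against 392.2 to 395.91 in dorsal early anagen. Melanocyte markers, which follow anagen follicles, summed to 195.38 to 322.11 FPKM in competent telogen and to 16.76 to 17.82 in ventral early anagen. Over all genes, the dorsal competent telogen libraries were most like those of chin late anagen (r up to 0.983). The second ventral refractory telogen library was also closest to chin late anagen (r = 0.961), and that group had the widest spread between libraries for 7 of the 8 members. The first ventral catagen library carried an ear location in 1 of its labels and a ventral one in its title and source, and was kept as ventral. Groups are named as the labels name them throughout.

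Most members differed between stages and between domains, as did most genes of the table. By limma on log2(FPKM + 1), with Benjamini-Hochberg adjustment over 21257 genes, 7 of the 8 members had an interaction of domain and stage, against 73.3% of all genes. Tgfb1 was the exception (adjusted p = 0.0534). The stages differed for 6 members in chin skin (66.2% of all genes), for 7 in ventral skin (70.2%) and for all 8 in dorsal skin (68.5%). The domains differed for 6 members in competent telogen (54.0% of all genes), 6 in early anagen (51.6%), 6 in mid anagen (38.1%) and 5 in catagen (42.9%). They differed for 6 members in refractory telogen (42.2%) and for Inhba alone in late anagen (20.8%). In late anagen, Tgfb2, Tgfbr2 and Tgfbr3 passed as well after median-of-ratios scaling (adjusted p 0.00113 to 0.0329), and in a separate fit all members but Tgfbr1 did. Without competent telogen and ventral early anagen, a choice made after seeing the data, 7 of 8 members had the interaction, and Tgfb1 did not (adjusted p = 0.216). The call of Tgfbr1 was lost under median-of-ratios (0.1001) and quantile scaling (0.126).

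On the length-corrected FPKM scale, the mean level of the members over the table was above that of 72.7% (Tgfb1) to 83.4% (Tgfbr2) of genes. Over the 43 libraries the median was lowest for Tgfb1 at 1.69 FPKM and highest for Inhba at 7.1 FPKM, with Tgfbr2 next at 6.81 FPKM. Between the highest and the lowest of the 18 groups, the mean level differed 8.96-fold for Tgfb3, the widest range, and 2.40-fold for Tgfbr1, the narrowest. Ranked by mean, most neighbouring groups overlapped: of 17 neighbouring pairs, the libraries were apart for 4 in Tgfb3 and Tgfbr2, 3 in Tgfbr3 and Inhbb, 2 in Tgfb2 and 1 each in Tgfb1, Tgfbr1 and Inhba. These counts were not made over all genes, so whether they are usual for the table cannot be said. In whole skin, fewer cells of a type and less RNA per cell cannot be told apart.

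**Figure D1:**
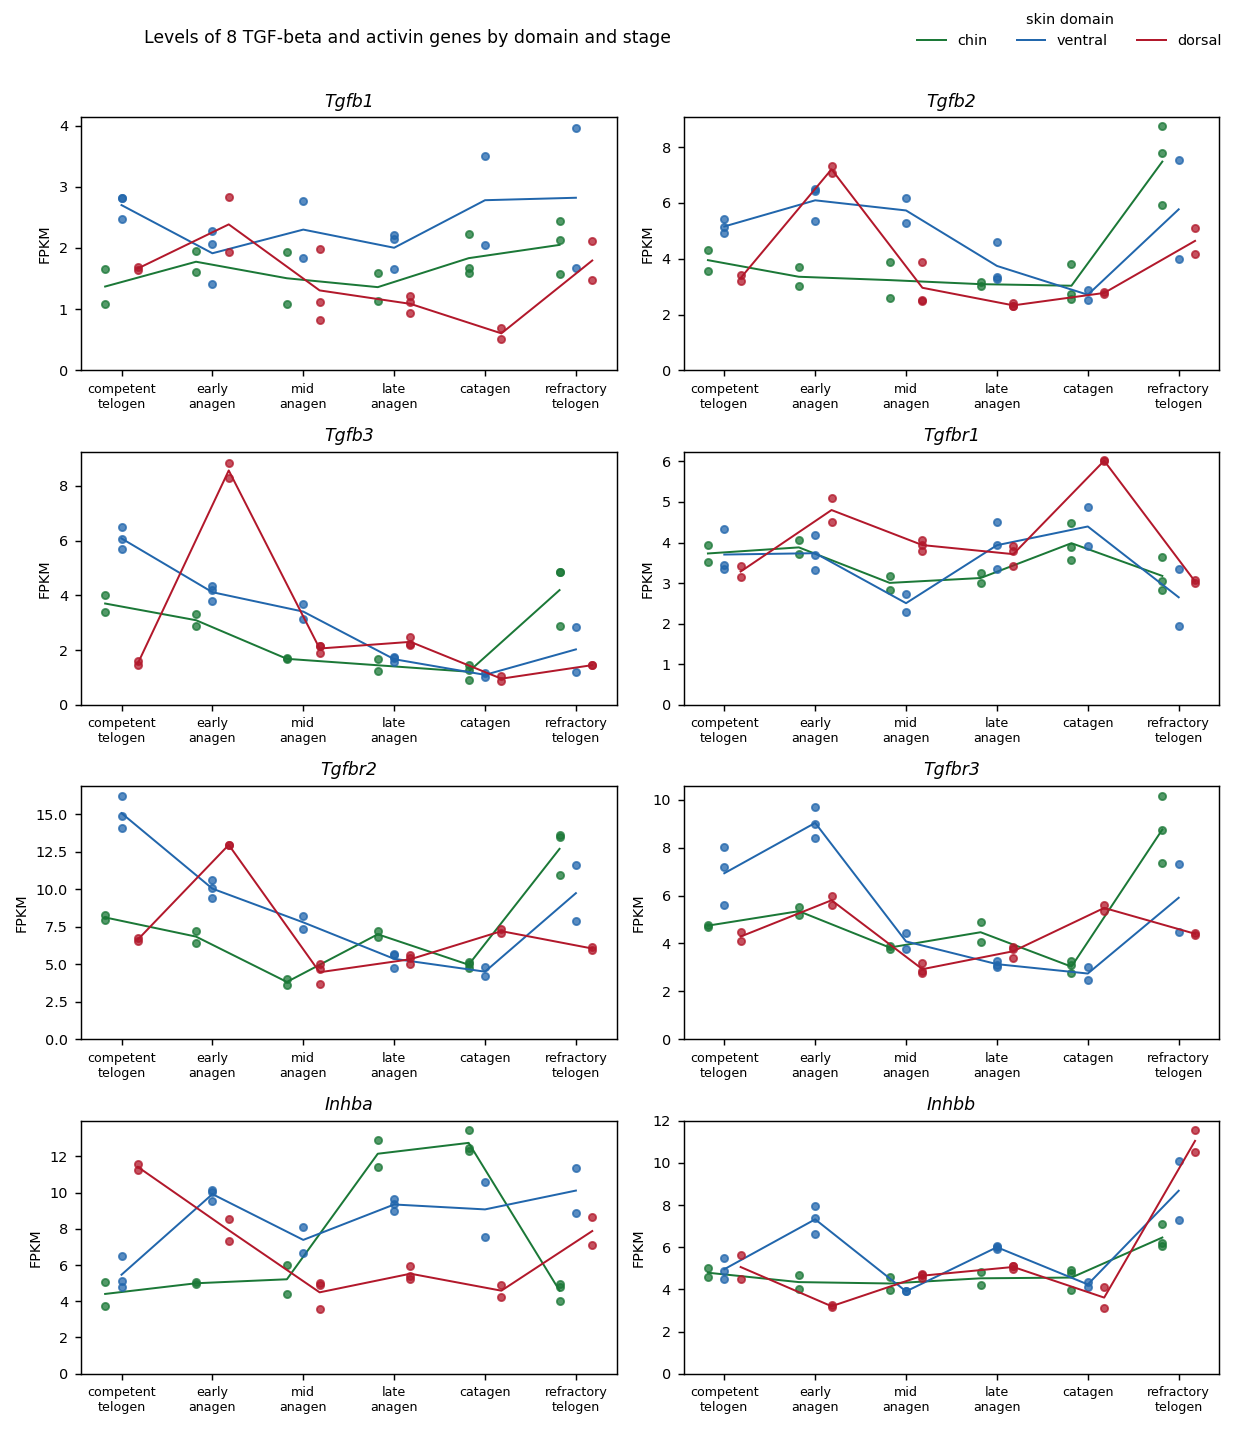
Level of each of the 8 genes (y axis, FPKM) at the 6 stages in chin, ventral and dorsal skin; points are libraries (2 or 3 a group) and lines join group means. Tgfb3 peaked in dorsal early anagen at 8.28 and 8.84 FPKM, and Inhbb in dorsal refractory telogen at 10.51 and 11.58 FPKM.

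Tgfb3 had a sharp peak in dorsal early anagen. In dorsal skin it was at 1.59 and 1.44 FPKM in competent telogen, 8.84 and 8.28 in early anagen, and 1.88, 2.14 and 2.15 in mid anagen. It was then at 2.49, 2.21 and 2.2 FPKM in late anagen, 1.05 and 0.86 in catagen, and 1.46 and 1.44 in refractory telogen. Both early anagen libraries stood above every other library of the chin, ventral and dorsal table. Tgfb3 rose by 1.93 ± 0.18 (SE, log2) from dorsal competent telogen to early anagen (adjusted p = 1.009e-09) and fell by 1.65 ± 0.16 into mid anagen (adjusted p = 3.422e-09). A further decrease followed from late anagen to catagen (-0.76 ± 0.16, adjusted p = 4.0e-04).

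Tgfb3 followed other courses in ventral and chin skin. In ventral skin it was highest in competent telogen, at 6.05, 6.48 and 5.7 FPKM, and it stood at 3.78, 4.21 and 4.35 in early anagen and 3.14 and 3.67 in mid anagen. Later ventral values were 1.75, 1.7 and 1.55 FPKM in late anagen, 1.17 and 1.02 in catagen, and 2.86 and 1.19 in refractory telogen. From mid to late anagen it fell by 0.72 ± 0.16 (adjusted p = 0.00143), and refractory telogen was below competent telogen by 1.28 ± 0.16 on the log2 scale (log2 difference -1.28, adjusted p = 2.477e-07). In chin skin the 3 catagen libraries were at 1.45, 1.28 and 0.9 FPKM and the 3 refractory telogen libraries at 4.85, 2.88 and 4.84, with no overlap. That rise was 1.21 ± 0.15 (adjusted p = 5.317e-08). In the ordering of all 18 groups, dorsal early anagen came first (8.56 ± 0.40 FPKM, SD, n = 2), ventral competent telogen second (6.08 ± 0.39, n = 3), and the 3 catagen groups last (0.955 to 1.21).

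Tgfb2 was highest in chin refractory telogen and dorsal early anagen. Chin libraries were at 3.8, 2.55 and 2.75 FPKM in catagen and at 8.74, 5.91 and 7.79 in refractory telogen, a rise of 1.07 ± 0.16 (adjusted p = 3.237e-06). Chin competent telogen, at 3.57 and 4.33 FPKM, lay between them, 0.77 ± 0.18 below refractory telogen on the log2 scale (adjusted p = 0.0014). Elsewhere in chin skin the level stayed within 2.58 to 3.89 FPKM through anagen. In dorsal skin Tgfb2 was at 3.19 and 3.43 FPKM in competent telogen, 7.08 and 7.33 in early anagen, and 3.87, 2.52 and 2.49 in mid anagen. It rose by 0.93 ± 0.20 (adjusted p = 0.000423) and fell by 1.07 ± 0.18 (adjusted p = 3.151e-05) over these steps, at the same stages as Tgfb3. Ventral skin was at 4.92 to 6.51 FPKM over competent telogen, early and mid anagen, and at 2.53 and 2.89 in catagen. The ventral refractory telogen libraries were far apart, at 7.55 and 3.99 FPKM. Their rise over catagen (0.82 ± 0.20, adjusted p = 0.0021) had adjusted p = 0.125 without the first of them.

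Tgfb1 was low and variable between libraries, with a median coefficient of variation of 23.7% within groups against 6.67% for Tgfbr2. Its lowest group was dorsal catagen, at 0.52 and 0.69 FPKM. Ventral catagen was at 3.51 and 2.05 FPKM, and chin catagen at 2.23, 1.59 and 1.68. All 5 of these libraries were above dorsal catagen, which was lower than ventral catagen by 1.21 ± 0.25 (log2 difference -1.21, adjusted p = 2.8e-04). Against chin catagen the difference was -0.82 ± 0.23 (adjusted p = 0.00442), and without the first dorsal catagen library it had adjusted p = 0.0523. Among stages, Tgfb1 differed in dorsal skin (adjusted p = 0.00625), with adjusted p = 0.537 in chin and 0.423 in ventral skin.

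The type II receptor gene Tgfbr2 had the most uniform replicates and rose in refractory telogen of chin and ventral skin. In chin skin it was at 8.28 and 7.98 FPKM in competent telogen, 6.45 and 7.25 in early anagen, 4.03 and 3.62 in mid anagen, and 7.2 and 6.81 in late anagen. It was then at 4.76, 5.15 and 5.01 FPKM in catagen and 13.65, 10.96 and 13.51 in refractory telogen. Chin skin so had a dip in mid anagen (-0.70 ± 0.13 from early anagen, adjusted p = 2.6e-04) and a return in late anagen (0.73 ± 0.13, adjusted p = 1.1e-04). The rise from chin catagen to refractory telogen was 1.19 ± 0.10 (adjusted p = 1.365e-10). In dorsal skin Tgfbr2 was at 6.57 and 6.74 FPKM in competent telogen, 12.98 and 12.96 in early anagen, and 4.69, 3.7 and 5.03 in mid anagen. It rose by 0.87 ± 0.13 (adjusted p = 2.767e-06) and then fell by 1.36 ± 0.12 (adjusted p = 1.809e-10).

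In ventral skin Tgfbr2 declined through the cycle before its return. The ventral values were 14.91, 16.25 and 14.1 FPKM in competent telogen, the highest of the 18 groups, and 9.4, 10.63 and 10.12 in early anagen. They were 4.2 and 4.82 FPKM in catagen, and 11.63 and 7.87 in refractory telogen. The first step fell by 0.54 ± 0.10 (adjusted p = 9.201e-05), and the last rose by 0.94 ± 0.13 (adjusted p = 1.145e-06). In refractory telogen, dorsal skin at 6.16 and 5.95 FPKM was below chin skin by 0.95 ± 0.12 (log2 difference -0.95, adjusted p = 1.654e-07).

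The co-receptor gene Tgfbr3 shared the chin rise. Chin catagen libraries were at 2.75, 3.26 and 3.09 FPKM and refractory telogen libraries at 8.72, 7.38 and 10.18, a rise of 1.27 ± 0.12 (adjusted p = 6.111e-10). Ventral skin was at 5.59, 8.01 and 7.2 FPKM in competent telogen, 8.99, 8.4 and 9.72 in early anagen, and 4.42 and 3.75 in mid anagen, where it fell by 0.98 ± 0.13 (adjusted p = 6.755e-07). Ventral early anagen was its highest group, and that group is the one whose proliferation and melanocyte markers were low. Dorsal skin was at 5.62 and 5.99 FPKM in early anagen and 2.75, 2.84 and 3.19 in mid anagen, a decrease of 0.79 ± 0.13 (log2 difference -0.79, adjusted p = 2.167e-05). In catagen Tgfbr3 was higher in dorsal than in chin skin by 0.69 ± 0.13 (adjusted p = 1.0e-04) and than in ventral skin by 0.80 ± 0.15 (adjusted p = 6.827e-05), with dorsal libraries at 5.37 and 5.6 FPKM.

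The type I receptor gene Tgfbr1 had its highest group mean in dorsal catagen. Dorsal skin was at 3.8, 3.42 and 3.92 FPKM in late anagen, 6.0 and 6.03 in catagen, and 3.07 and 3.01 in refractory telogen. The rise was 0.58 ± 0.13 (adjusted p = 0.000685) and the fall that followed was 0.80 ± 0.14 (log2 difference -0.80, adjusted p = 3.449e-05). In catagen, dorsal skin was above chin skin (3.58 to 4.48 FPKM) by 0.50 ± 0.13 (adjusted p = 0.00254). Its other 17 group means lay between 2.50 (ventral mid anagen, 2.29 and 2.72 FPKM) and 4.8 FPKM (dorsal early anagen). Stages differed in ventral (adjusted p = 6.7e-04) and dorsal skin (adjusted p = 1.2e-04), with adjusted p = 0.111 in chin skin, where it passed after rescaling to TPM (0.0342), median of ratios (0.046) or quantile scaling (0.00519).

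Inhba, the beta A subunit gene, was high in late anagen and catagen of chin skin and low there at every other stage. The chin values were 5.06 and 3.75 FPKM in competent telogen, 5.06 and 4.93 in early anagen, and 6.03 and 4.4 in mid anagen. They were then 11.41 and 12.89 FPKM in late anagen, 12.28, 13.48 and 12.49 in catagen, and 4.95, 4.0 and 4.81 in refractory telogen. The 5 late anagen and catagen libraries did not overlap the other 9. Inhba rose by 1.09 ± 0.16 from mid to late anagen (adjusted p = 1.047e-05) and fell by 1.30 ± 0.13 into refractory telogen (adjusted p = 1.829e-09), while the same step raised Tgfb2, Tgfb3, Tgfbr2, Tgfbr3 and Inhbb.

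Dorsal Inhba was highest in competent telogen. The dorsal values were 11.61 and 11.23 FPKM in competent telogen, 8.52 and 7.33 in early anagen, and 4.88, 5.01 and 3.59 in mid anagen. They were 5.24, 5.38 and 5.95 FPKM in late anagen, 4.91 and 4.26 in catagen, and 7.1 and 8.66 in refractory telogen. It fell by 0.71 ± 0.14 from early to mid anagen (adjusted p = 2.7e-04) and rose by 0.67 ± 0.16 from catagen to refractory telogen (adjusted p = 9.8e-04). The domains were therefore in opposite order at different stages. In competent telogen, dorsal skin was above chin skin by 1.21 ± 0.16 (adjusted p = 6.964e-07). In late anagen dorsal minus chin was -1.01 ± 0.14 (adjusted p = 8.222e-06) and in catagen -1.30 ± 0.14 (adjusted p = 2.105e-08). The dorsal competent telogen libraries were those that resembled chin late anagen over all genes, and Inhba was at 11.2 to 12.9 FPKM in both groups. Ventral skin rose from 5.1, 6.5 and 4.8 FPKM in competent telogen to 10.15, 9.56 and 10.05 in early anagen (0.76 ± 0.13, adjusted p = 1.98e-05) and stayed between 6.67 and 11.37 FPKM thereafter.

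Inhbb, the beta B subunit gene, was highest in refractory telogen of dorsal and ventral skin. Dorsal skin was at 5.65 and 4.47 FPKM in competent telogen, 3.16 and 3.24 in early anagen, and 4.55, 4.69 and 4.71 in mid anagen. It was then at 5.11, 4.95 and 5.13 FPKM in late anagen, 4.09 and 3.13 in catagen, and 11.58 and 10.51 in refractory telogen. Both refractory libraries were above every other library. The rise out of catagen was 1.39 ± 0.12 (adjusted p = 2.817e-10), and refractory was above competent telogen by 1.00 ± 0.12 (adjusted p = 7.143e-07). The 2 dorsal early anagen libraries were the lowest group of the 18.

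In ventral skin Inhbb moved at 4 of the 5 steps under every alternative in which the step could be tested. It was at 4.86, 5.5 and 4.51 FPKM in competent telogen, 7.38, 6.65 and 7.94 in early anagen, and 3.91 and 3.9 in mid anagen. It was then at 6.02, 6.08 and 5.9 FPKM in late anagen, 4.36 and 4.11 in catagen, and 10.09 and 7.27 in refractory telogen. These were rises of 0.48 ± 0.10 (adjusted p = 2.7e-04), 0.51 ± 0.11 (adjusted p = 0.00115) and 0.87 ± 0.12 (adjusted p = 2.746e-06) into early anagen, late anagen and refractory telogen, and a fall of 0.76 ± 0.11 (log2 difference -0.76, adjusted p = 2.949e-06) into mid anagen. The steps into early and mid anagen rest on the ventral early anagen group, whose proliferation and melanocyte markers were low. Without that group these steps could not be tested. Chin skin held 3.96 to 5.01 FPKM at 5 stages and 7.11, 6.06 and 6.21 in refractory telogen, 0.43 ± 0.10 above catagen (adjusted p = 8.3e-04).

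Over all genes at the steps between stages, including refractory against competent telogen, 49634 calls were higher and 60609 lower (45% higher). By step, 454 to 10206 of 21257 genes were called. Over the members at the same steps, 69 of 144 tests passed, 37 higher and 32 lower. Of these, 42 passed under every alternative in which the gene was tested, leaving out each library of the 2 groups compared included, and the other 27 lost the call under at least 1 of them, 25 when a library was left out. Without competent telogen and ventral early anagen, 38 of the 88 tests that could be made passed. The changes described gene by gene are among the 42 unless a lost call is named.

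From catagen to refractory telogen, 5 or 6 of the 8 members were called in each domain. In chin skin 5 rose (Tgfb2, Tgfb3, Tgfbr2, Tgfbr3 and Inhbb) and Inhba fell, against 48% of all genes called, with a median of 0.75 on the log2 scale over the members and 0.0854 over all genes. In ventral skin 5 rose and Tgfbr1 fell (33.6% of all genes), with a median of 0.65 against -0.0344. Of these 6, the calls of Tgfb2, Tgfb3 and Tgfbr1 were lost when 1 library was left out. Without the first refractory telogen library, Tgfb2 had adjusted p = 0.125 and Tgfb3 0.851. Tgfb3 was also lost without either catagen library (0.0835 and 0.17), and Tgfbr1 without the second refractory (0.125) or the first catagen library (0.051). In dorsal skin Tgfb1, Tgfb2, Inhba and Inhbb rose and Tgfbr1 fell (43.7% of all genes), with a median of 0.45 against 0. The rise of Tgfb1 there was lost without the first catagen (adjusted p = 0.0724) or the first refractory telogen library (0.118). That of Tgfb2 was lost without either catagen library (0.0859 and 0.0665) or the second refractory telogen library (0.163).

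Cell type markers moved over these steps as well. From catagen to refractory telogen in chin skin, the 8 hair matrix and shaft markers went from a sum of 16375.68 to 16877.6 FPKM to one of 3288.51 to 4786.16. The 7 fibroblast markers went from 164.62 to 175.81 FPKM to 605.58 to 708.8, the 6 endothelial markers from 20.92 to 25.07 to 37.9 to 54.39, and the 9 skeletal muscle markers from 2400.96 to 2604.45 to 9772.55 to 15082.08. All markers of these 4 lists were above 0 in both groups. In ventral skin over the same step, fibroblast markers went from 158.22 to 179.49 FPKM to 425.61 to 478.13, hair matrix and shaft markers from 14109.89 to 15373.15 to 8874.11 to 11608.3, and the 5 melanocyte markers from 503.37 to 533.9 to 17.07 to 17.25. In dorsal skin, fibroblast markers went from 282.02 to 294.24 FPKM to 139.72 to 139.76, hair matrix and shaft markers from 8083.43 to 8195.65 to 9154.98 to 9236.87, and melanocyte markers from 1007.44 to 1009.72 to 9.98 to 12.38. Over the 3 domains together, the 7 keratinocyte markers summed to 2372.82 to 3772.97 FPKM in catagen and 5644.84 to 6820.06 in refractory telogen. Proliferation markers summed to 207.83 to 347.54 FPKM in catagen and 37.31 to 52.64 in refractory telogen. The part of these markers in the levels of the members was not tested.

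In dorsal skin, members were also called on both sides of early anagen. From competent telogen, 5 rose and 2 fell (43.4% of all genes, with 7483 higher and 1751 lower). The median was 0.40 on the log2 scale over the members against 0.2451 over all genes. Into mid anagen 1 rose and 6 fell (39.2%, with 1932 higher and 6396 lower). The median there was -0.75 over the members against -0.1785 over all genes. After median-of-ratios scaling the median over all genes was 0 at both steps. Some of these calls were lost when 1 library was left out, although the difference of Tgfbr3 into early anagen stayed at 0.32 to 0.41. Into early anagen, Tgfbr3 lost its call without any 1 of the 4 libraries (adjusted p 0.0821 to 0.186) and was at -4e-04 after median-of-ratios and -0.03 after quantile scaling. Tgfbr1 lost it without the second library of either stage (0.0914 and 0.114), and Inhba without either competent telogen library or the second early anagen library (0.0505 to 0.131). Into mid anagen, Tgfb1 lost it without the first early anagen library (0.361) or the first or the third mid anagen library (0.191 and 0.111). In dorsal skin the fibroblast markers summed to 311.77 to 311.96 FPKM in competent telogen, 401.38 to 408.02 in early anagen and 92.9 to 105.19 in mid anagen. Smooth muscle markers summed to 112.78 to 113.8, 213.16 to 244.74 and 121.05 to 129.26 FPKM in the same order. Their part was not tested either. Later dorsal steps had 0 members called from mid to late anagen (limma, 2 at unadjusted p under 0.05; 2.68% of all genes), and 3 higher and 2 lower into catagen (38.7%). Into catagen, Tgfbr2 lost its call without the first catagen library (adjusted p = 0.0774) and Inhbb without the second (0.183). Between the 2 telogen stages, Inhbb was higher and Inhba lower in refractory telogen (22.2%), and Inhba was lost without either competent telogen library (0.121 and 0.0855) or the first refractory telogen library (0.249).

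Between the other stages, 0 to 5 members were called in chin and ventral skin. In chin skin, limma called 0 members from competent telogen to early anagen, with 0 at unadjusted p under 0.05 (2.14% of all genes). It called 2 lower into mid anagen (18.1%), 2 higher into late anagen (19.7%), 2 lower into catagen (13.1%) and 4 higher in refractory than in competent telogen (36.3%). Tgfb3 into chin mid anagen was lost without the first early anagen library (adjusted p = 0.125) or either mid anagen library (0.0616 and 0.063). Both chin calls into catagen, Tgfbr2 (0.0697 and 0.132) and Tgfbr3 (0.0541 and 0.287), were lost without either late anagen library, and Tgfbr3 also without the first or the third catagen library (0.0956 and 0.0526). The chin difference of Inhbb between the telogen stages was lost without the second competent (0.113) or the first refractory telogen library (0.0614).

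In ventral skin 3 were higher and 2 lower in early anagen than in competent telogen (42.5%), 5 lower into mid anagen (42.4%), 2 higher and 3 lower into late anagen (24.2%) and 1 lower into catagen (5.93%). Ventral refractory telogen had 2 higher and 3 lower than competent telogen (42.6%). Into early anagen, Tgfbr3 was lost without the first competent telogen (adjusted p = 0.168) or the third early anagen library (0.0782). Into mid anagen, 3 of the 5 calls were lost without 1 library: Tgfbr1 without the first mid anagen library (0.109), Tgfbr2 without the second early (0.0736) or second mid anagen library (0.203), and Inhba without the first or the third early (0.0729 and 0.0668) or the second mid anagen library (0.308). Into late anagen, Tgfbr1 (0.0981) and Tgfbr2 (0.0646) were lost without the first mid anagen library. Tgfb2 was lost there without either mid anagen library (0.0749 and 0.275) or the second or the third late anagen library (0.129 and 0.119). The 1 call into catagen, Inhbb, was lost without either catagen library (0.0806 and 0.176) or the first or second late anagen library (0.059 and 0.0633). Between the telogen stages, Tgfbr1 was lost without the second competent (0.0958) or second refractory telogen library (0.629).

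**Figure D2:**
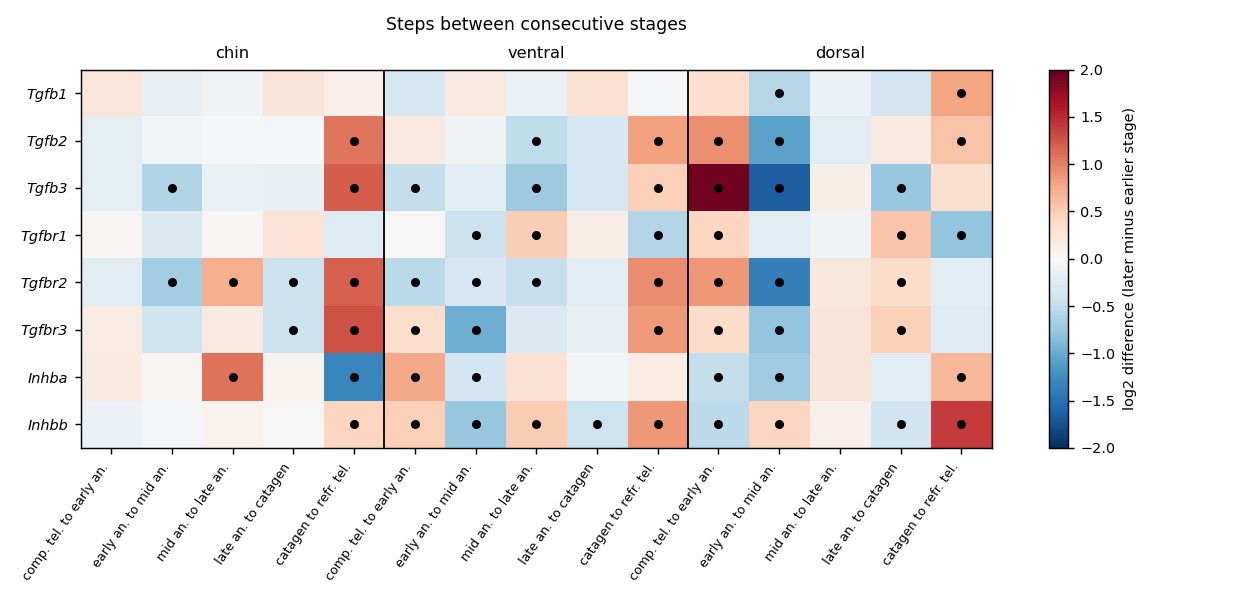
Log2 difference (colour, later minus earlier stage, on log2(FPKM + 1)) for each of the 8 genes at the 5 consecutive steps in chin, ventral and dorsal skin; dots mark adjusted p under 0.05. The chin column from catagen to refractory telogen has 6 dots, and dorsal Tgfb3 holds both the largest rise (1.93) and the largest fall (-1.65).

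Pairs of domains were compared at each stage. Over all genes, 45765 calls were higher and 55414 lower in the first-named domain (45.2% higher), with 3.14% to 47.9% of genes called by pair. Over the members, 63 of 144 tests passed, 33 higher and 30 lower in the first-named domain. Of these, 34 passed under every such alternative, and 27 lost the call when a library was left out. Without competent telogen and ventral early anagen, 40 of the 104 tests that could be made passed. In competent telogen, 4 members were higher in ventral than in chin skin (23.0% of all genes), and dorsal skin had 1 higher and 1 lower than chin skin (36.7%). Dorsal skin had 1 higher and 4 lower than ventral skin (47.9%, with 2102 genes higher and 8070 lower). Tgfb3, at 1.44 and 1.59 FPKM in dorsal and 5.7 to 6.48 in ventral skin, had the widest gap there (-1.49 ± 0.16, adjusted p = 1.509e-08), and Inhba went the other way (0.95 ± 0.14, adjusted p = 3.676e-06). Between ventral and chin skin, Tgfb1 was lost without any 1 of the 5 libraries (adjusted p 0.0518 to 0.305), Tgfbr3 without either chin or the second ventral library (0.068 to 0.0854), and Tgfb3 without the second chin library (0.11). Between dorsal and ventral skin, Tgfb2 was lost without either dorsal or the second ventral library (0.0574 to 0.118).

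In early anagen, 5 members were higher in ventral than in chin skin and 0 lower (32.9% of all genes, with 2768 higher and 4217 lower). Dorsal skin had 4 higher and 1 lower than chin skin (27.0%), and 2 higher and 2 lower than ventral skin (41.7%). Tgfb3 was higher in dorsal than in chin skin by 1.23 ± 0.18 (adjusted p = 7.047e-06), and than in ventral skin by 0.90 ± 0.16 (adjusted p = 4.698e-05). Inhbb was lower in dorsal than in ventral skin (-0.98 ± 0.11, adjusted p = 4.318e-08). Tgfb2 between ventral and chin skin was lost without the first chin library (adjusted p = 0.0606), and Inhba between dorsal and chin skin without the first dorsal library (0.0966). Inhbb between dorsal and chin skin was lost without the first chin or either dorsal library (0.104 to 0.289), and Tgfbr2 between dorsal and ventral skin without the first ventral or either dorsal library (0.0688 to 0.0842).

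In mid anagen 4 members were higher in ventral than in chin skin (22.1%). Dorsal skin had 1 higher and 5 lower than ventral skin (28.3%, with 3431 genes higher and 2580 lower). Between dorsal and chin skin limma called 0, with 2 at unadjusted p under 0.05 (17.2% of all genes). Only the 2 calls of Tgfbr2 in mid anagen, ventral above chin (0.87 ± 0.13, adjusted p = 1.428e-05) and dorsal below ventral (-0.69 ± 0.12, adjusted p = 4.656e-05), passed under every alternative. Without the second ventral mid anagen library, Tgfb2 (adjusted p = 0.13), Tgfb3 (0.0616) and Inhba (0.0554) were no longer called above chin skin, nor Tgfb3 (0.153) and Tgfbr3 (0.0522) below in dorsal skin. Without the first, Inhba was lost against chin skin (0.291), and Tgfbr1 (0.0835), Tgfbr3 (0.278) and Inhba (0.0575) between dorsal and ventral skin. Tgfb2 was also lost without the first chin library (0.163), Inhba without the second chin library (0.484) and Tgfbr3 without the first or second dorsal library (0.0947 and 0.0801).

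Late anagen held the fewest calls. By the limma F-test among its domains 1 member was called, but 7 were at unadjusted p under 0.05, against 5 or 6 at the other stages. Ventral skin had 1 member higher and 2 lower than chin skin (15.6% of all genes), dorsal skin 2 lower than chin skin (19.5%) and 1 lower than ventral skin (3.14%). Inhba was the 1 below ventral skin (-0.67 ± 0.13, adjusted p = 0.0024). All 3 ventral calls against chin skin, Tgfbr2, Tgfbr3 and Inhbb, were lost without any 1 of the 5 libraries (adjusted p 0.0552 to 0.366), and likewise Tgfbr2 between dorsal and chin skin (0.0549 to 0.212).

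In catagen, limma called 0 members between ventral and chin skin, with 1 at unadjusted p under 0.05 (5.19%). Dorsal catagen had 3 members higher (Tgfbr1, Tgfbr2 and Tgfbr3) and 2 lower (Tgfb1 and Inhba) than chin skin (41.3% of all genes). Against ventral skin, in a comparison that shares the dorsal libraries, 3 were higher and 2 lower (35.4%). Tgfbr1 there was lost without the second ventral or either dorsal library (adjusted p 0.109 to 0.292). In refractory telogen, ventral skin had 2 members higher and 3 lower than chin skin (30.7%, with 1289 genes higher and 5245 lower). Dorsal skin had 2 higher and 4 lower than chin skin (34.8%, with 1618 and 5776), and 1 lower than ventral skin (13.7%). Against chin skin, the ventral calls of Tgfb3 (adjusted p = 0.078), Tgfbr2 (0.592) and Tgfbr3 (0.297) were lost without the second ventral library, that of Inhbb without the first (0.389), and that of Tgfbr2 also without the first or the third chin library (0.0681 and 0.0638). Tgfb2 between dorsal and chin skin was lost without the first library of either (0.161 and 0.0755), and Tgfbr2 between dorsal and ventral skin without the first ventral library (0.0651). Tgfb3 was lower in dorsal than in chin refractory telogen (-1.06 ± 0.16, adjusted p = 6.784e-06), and both activin subunits were higher, Inhba by 0.67 ± 0.14 (adjusted p = 5.3e-04) and Inhbb by 0.69 ± 0.11 (adjusted p = 1.57e-05).

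The ear held the widest differences of all. In the cartilage/muscle complex Tgfb3 was at 70.16, 76.01 and 65.79 FPKM, in ear skin at 9.39 and 8.55, and in dorsal competent telogen skin at 1.59 and 1.44. The ratio of mean levels was 46.6 between the complex and dorsal skin, 7.88 between the complex and ear skin, and 5.92 between ear and dorsal skin. On the log2(FPKM + 1) scale, which understates changes of low values, the complex exceeded dorsal skin by 4.83 ± 0.08 (adjusted p = 8.012e-08) and ear skin by 2.84 ± 0.08 (adjusted p = 9.128e-07). The level in the complex was far above the 5.08 to 6.61 FPKM of the overlapping gene Ttll5.

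Tgfb2 had the same order. It was at 33.58, 36.8 and 33.76 FPKM in the complex, 9.48 and 10.47 in ear skin and 3.19 and 3.43 in dorsal skin. The complex exceeded ear skin by 1.70 ± 0.08 (adjusted p = 5.556e-06), and ear skin exceeded dorsal skin by 1.35 ± 0.08 (adjusted p = 4.756e-05). Tgfb1 did not follow, with 1.93, 1.85 and 2.31 FPKM in the complex, 1.88 and 1.92 in ear skin and 1.64 and 1.69 in dorsal skin, and it was called in none of the 3 comparisons. After rescaling to TPM alone, Tgfb1 was called higher in ear than in dorsal skin (adjusted p = 0.0419).

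The receptors were also highest in the complex. Tgfbr2 was at 25.69, 27.22 and 25.09 FPKM there, 17.36 and 15.53 in ear skin and 6.57 and 6.74 in dorsal skin. Tgfbr3 was at 24.63, 23.28 and 24.48 FPKM in the complex, 8.63 and 8.15 in ear skin and 4.12 and 4.46 in dorsal skin. Against ear skin, the complex was higher by 0.63 ± 0.07 for Tgfbr2 (adjusted p = 4.0e-04) and by 1.42 ± 0.07 for Tgfbr3 (adjusted p = 6.942e-06). Tgfbr1 was at 6.35, 5.39 and 6.12 FPKM in the complex against 2.97 and 2.93 in ear skin (0.81 ± 0.09, adjusted p = 3.4e-04). Ear and dorsal skin (3.42 and 3.15 FPKM) were close for Tgfbr1, and ear skin was called lower only under median-of-ratios (adjusted p = 0.00817) and quantile scaling (0.00608).

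The activin subunits were the members that were lower in ear than in dorsal skin. Inhba was at 1.8 and 2.05 FPKM in ear skin and 11.61 and 11.23 in dorsal skin, a difference of -2.09 ± 0.12 (adjusted p = 3.522e-05). In the complex it was at 5.61, 4.39 and 4.56 FPKM, between the other 2 tissues. Inhbb was at 2.45 and 1.86 FPKM in ear skin, 4.06, 4.07 and 4.59 in the complex and 5.65 and 4.47 in dorsal skin. The difference between ear and dorsal skin was -0.94 ± 0.14 (adjusted p = 0.00186). The dorsal group of these comparisons ranked 13 of the 18 skin groups for mean Tgfb3. Set beside all 43 skin libraries, ear skin overlapped the highest values of Tgfb3 (8.84 FPKM) and Tgfbr2 (16.25). Its Tgfb1, Tgfbr1 and Tgfbr3 were within the range of those libraries. Its Tgfb2 was above their highest value (8.74 FPKM), and its Inhba and Inhbb were below their lowest (3.59 and 3.13).

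By count, 4 members were higher and 2 lower in ear than in dorsal skin (59.3% of all genes called), 7 were higher and 0 lower in the complex than in ear skin (66.5%), and 5 were higher and 1 lower in the complex than in dorsal skin (71.1%). All 19 calls passed under every alternative in which the gene was tested, also when dorsal skin was represented by its 2 refractory telogen libraries. With the minimum of 5 FPKM, Inhbb was not tested and the other 17 calls passed. The member medians were 0.48, 0.90 and 1.26 on the log2 scale, against 0.33, -0.11 and 0.24 over the 19299 genes of the table. Under median-of-ratios or quantile scaling the split became 4 and 3 for ear against dorsal skin and 5 and 2 for the complex against dorsal skin. The tissues were distinct in their markers. The 8 chondrocyte markers summed to 593.9 to 671.05 FPKM in the complex and 2.86 to 3.0 in ear skin, and the 9 skeletal muscle markers to 16995.83 to 19770.24 and 949.84 to 1008.9. The 7 keratinocyte markers summed to 7.07 to 7.89 FPKM in the complex, with Dsg3 at 0 there, and to 8613.14 to 9170.97 in ear skin. Hair matrix and shaft markers summed to 115.59 to 120.17 FPKM in ear skin and to 12750.18 to 12857.15 in dorsal skin labelled competent telogen. Tissue and cell makeup cannot be told apart here.

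**Figure D3:**
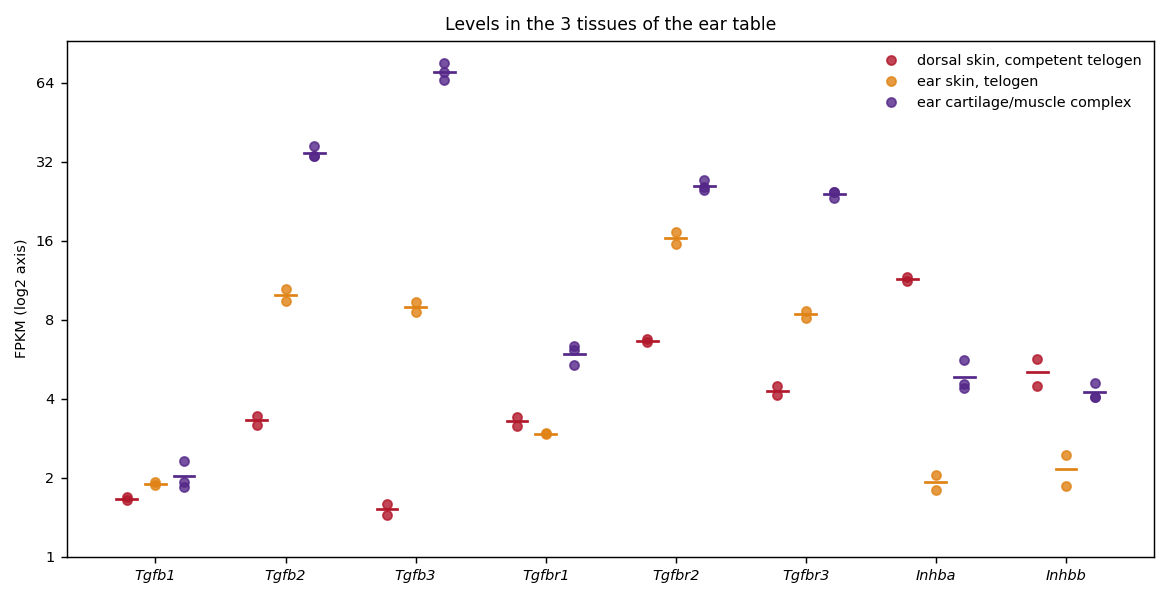
Level of each gene (y axis, FPKM on a log2 axis) in dorsal competent telogen skin (n = 2), telogen ear skin (n = 2) and the ear cartilage/muscle complex (n = 3); points are libraries and bars are group means. Tgfb3 climbs from a mean of 1.51 FPKM in dorsal skin to 70.7 in the complex, whereas Tgfb1 stays between 1.64 and 2.31 in all libraries.

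The wider pathway was followed with 58 genes in 5 lists, of which 57 passed the filter. Stages differed for 52 of them in chin (66.2% of all genes), 52 in ventral (70.2%) and 49 in dorsal skin (68.5%), and 52 had an interaction of domain and stage (73.3%). From catagen to refractory telogen, 39 were higher and 5 lower in chin skin (48% of all genes called), 22 and 5 in ventral skin (33.6%), and 20 and 10 in dorsal skin (43.7%). In chin skin 12 of 15 latency and activation genes were higher, with the latency protein Nrros at 1.55 and the protease Mmp14 at 1.37 on the log2 scale. All 6 genes listed as ligand traps and antagonists, Inha among them, were higher in chin skin, led by fibromodulin (Fmod, 2.21) and follistatin (Fst, 1.64). The 11 intracellular mediators were split, 4 higher and 3 lower, and the inhibitory Smad7 was the lowest at -0.84. Of 17 response genes 13 were higher, led by Ctgf (2.24) and Cyr61 (2.20).

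Other domains differed in part at that step. In ventral skin the activator thrombospondin 1 (Thbs1) was higher by 2.23 and the integrin subunit Itgb6 lower (-1.15), and the traps decorin (Dcn, 1.03) and Fst (0.84) were higher while Inha was lower (-0.77). In dorsal skin Thbs1 (2.67) and the latent-TGF-beta binding protein Ltbp4 (2.61) were higher, while Dcn was lower (-1.15). Among dorsal response genes 5 were higher, led by Junb (2.93) and Ctgf (1.63), and 3 lower, with Tagln at -1.38.

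In the ear, 32 pathway genes were higher and 16 lower in the complex than in ear skin, against 66.5% of all genes called, of which 42.1% were higher. After rescaling to TPM the split was 26 and 19, and 31.6% of the calls over all genes were higher. Under quantile scaling the pathway split was 33 and 13, with 54.3% higher over all genes. Of 17 response genes, 10 were higher and 6 lower. The matricellular genes Cyr61 (6.59) and Ctgf (5.73) had the largest differences upward, and the periostin gene Postn (-4.96) and the collagen gene Col1a1 (-4.66) the largest downward. Fmod was at 734 ± 49.0 FPKM in the complex (SD, n = 3) and 24.7 ± 2.29 in ear skin (n = 2), a difference of 4.84, and Bgn, another proteoglycan that binds TGF-beta, differed by 2.47. The follistatin genes were lower, with Fstl3 at -2.76 and Fst at -0.51, and the inhibin alpha subunit gene Inha was higher (1.22). Thbs1 (3.52) and Ltbp3 (3.07) led the latency list, 8 higher and 3 lower of 15, with Nrros (-1.55) and Mmp14 (-1.04) lower. Among receptors, Acvr2b (1.33) and Acvrl1 (1.19) were higher and the activin type I receptor gene Acvr1b (-1.54) lower. Smad7 (1.48) and Smad3 (1.36) were the mediators with the largest rise, and Skil (-0.77) the one with the largest fall.

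Ear against dorsal skin gave 33 pathway genes higher and 9 lower, but this split depended on the scaling, with 20 and 22 under median of ratios and 20 and 20 under quantile normalization. Over all genes, 59.3% were called in ear against dorsal skin, and 75.3% of these calls were higher in ear skin as deposited. Under median of ratios 48.8% were higher, and the median of all genes moved by 0.31 on the log2 scale. The collagen genes Col1a2 (3.52) and Col1a1 (3.31) and the trap Fmod (3.24) were highest. The pathway inhibitors Pmepa1 (-2.07) and Smad7 (-1.66) were lowest, along with Thbs1 (-1.31). Complex against dorsal skin had 34 higher and 15 lower, and 28 and 21 under median of ratios. Over all genes 71.1% were called there, with 60.2% of the calls higher as deposited and 46.6% under median of ratios.

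**Figure D4:**
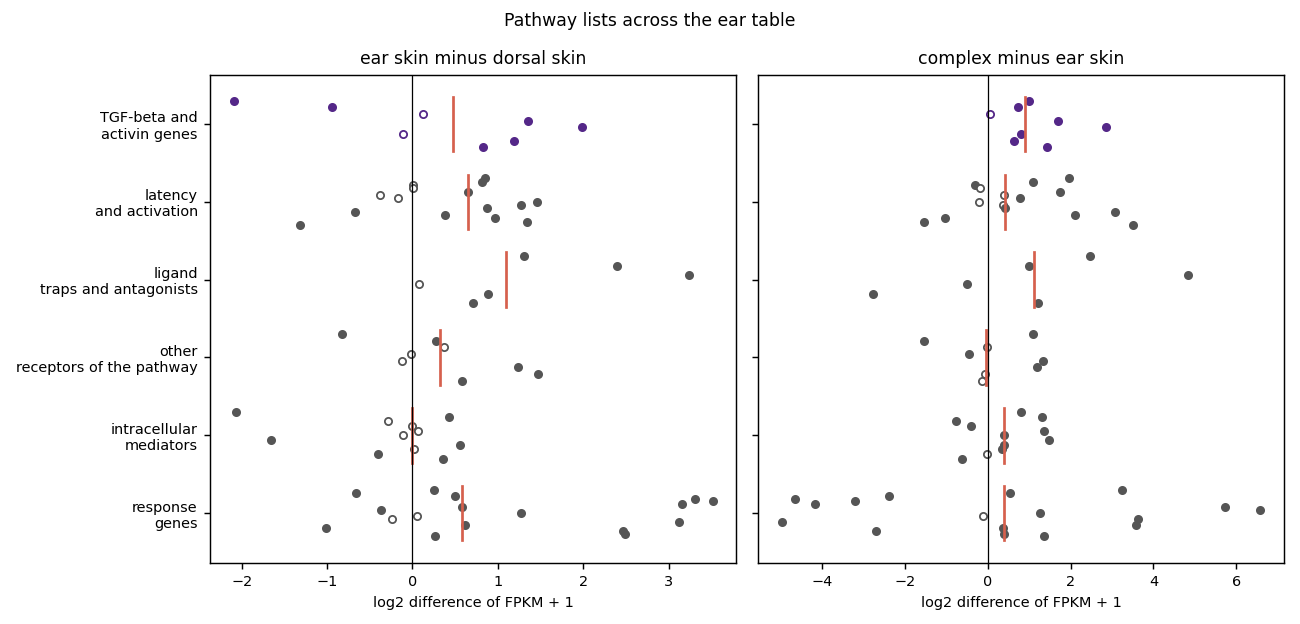
Log2 difference of FPKM + 1 (x axis) for the 8 genes and the 5 pathway lists, ear skin minus dorsal skin (left) and complex minus ear skin (right); filled points passed adjusted p under 0.05, open points did not, and vertical bars are list medians. Of the 8 genes, 7 lie to the right and pass in the comparison of complex and ear skin, and response genes spread from -4.96 to 6.59.

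Patterns were compared over the 18 group means of log2(FPKM + 1), which share libraries and tissue makeup, so the correlations are a description. Among members, Tgfbr2 went with Tgfbr3 (r = 0.85), Tgfb2 (0.81) and Tgfb3 (0.78), and Tgfb2 with Tgfb3 (0.73). Tgfbr1 went with none of the ligands (r from -0.38 to -0.02), and Inhba and Inhbb were weakly related (0.21). Among other genes, the closest to Tgfb3 were Tlcd2 (0.97), Mrgprf (0.96) and Rbms2 (0.96). The closest to Tgfbr2 were Gypc, Gstm2 and Ecm2 (each 0.95), to Tgfbr3 Crip1 (0.94), Tgoln1 and Il6st (0.93), and to Tgfb2 Fam3c, 1110007C09Rik and Tmem204 (each 0.90). For Tgfbr1 they were Gpalpp1, Ccdc132 and 1110008L16Rik (0.92 to 0.93), and for Inhbb Foxc2 (0.89), Pla2g3 (0.86) and Micall1 (0.85). Inhba (Tle6, 0.79) and Tgfb1 (Zfp513, 0.83) had no gene so close. Of the cell type lists, hair matrix and shaft markers ran opposite to Tgfbr3 (-0.94) and endothelial markers with it (0.88), fibroblast markers ran with Tgfbr2 (0.84), and melanocyte (-0.86) and proliferation markers (-0.85) ran opposite to Inhbb.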

How the data were processed

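Whole skin of 43 libraries of chin, ventral and dorsal skin, and 5 further libraries of ear skin and ear cartilage/muscle complex, was measured by bulk RNA-seq from a SMART-seq2 protocol. The authors deposited FPKM values per gene in 2 tables, quantified with RSEM 1.2.25 against mm10 per the submitters' processing notes. A batch correction is described in the methods of the study, and whether the deposited FPKM include it is not stated. The 2 dorsal competent telogen libraries are identical in both tables. All sample columns matched a labelled sample, except the 2 of ear skin, whose numbers differ from those of the titles and which were mapped to their group only.

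Here a pseudocount of 1 was added before taking log2. Genes entered the fit if 2 or more libraries reached 0.5 FPKM, which left 21257 in the skin table and 19299 in the ear table. The study used a count tool. Since FPKM are not counts, limma 3.58.1 (R 4.3.3, statmod 1.5.0) was used instead, with moderated variances that were allowed to depend on mean expression. Each table had 1 fit, with 18 groups of domain and stage or 3 tissues, without covariates. Benjamini-Hochberg adjustment ran over all genes tested, and an adjusted p under 0.05 is a call. Fold changes are on the log2(FPKM + 1) scale, which understates changes of low genes. Tables and figures were made with Python 3.11.15 (numpy 2.4.6, pandas 2.3.3, matplotlib 3.10.9). The fit was checked on simulated data.

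Depth was estimated from the steps between low FPKM values, 6720000 to 28980000 fragments a library, and is approximate: 74.4 to 82.7% of the implied counts were within 0.15 of a whole number. The 8 members and 58 genes of 5 pathway lists are the genes named, apart from cell type markers, genes that overlap a member and, for each member, the genes with the highest correlation over the 18 group means. The members and lists were chosen with earlier results of these data known. Alternatives were a pseudocount of 0.1, no filter, a minimum of 5 FPKM, rescaling to TPM, median-of-ratios and quantile scaling, a replicate block, no variance trend, separate fits, omission of each library, dorsal refractory in place of competent telogen skin in the ear table, and 1 fit over all 48 libraries. Leaving out competent telogen and ventral early anagen was chosen after seeing the data.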

Additional observations from a re-analysis of the deposited data

Results flagged for a closer look

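The effect of stage differed between chin, ventral and dorsal skin for 7 of the 8 members by the interaction test of limma, against 73.3% of all genes. The adjusted p was 0.0005367 for Tgfb2, 2.733e-09 for Tgfb3, 0.01806 for Tgfbr1 (not passed under median of ratios, 0.1001, or quantile scaling, 0.126), 1.733e-10 for Tgfbr2 and 1.211e-07 for Tgfbr3. It was 1.421e-10 for Inhba and 8.084e-07 for Inhbb.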

How the results depend on the processing

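Groups held 2 or 3 libraries, the depth is an estimate and FPKM keep no counts, so differences of genes near 1 FPKM, such as Tgfb1, had the widest errors. For the member differences called between stages or domains and all 24 in the ear, 2070 values under the alternatives kept direction and side of the threshold, 222 lost the call, 6 gained it (all in the ear) and 2 reversed. Differences between stages or domains without a call were not followed. For the tests of interaction, stages and domains, 722 were on the same side of the threshold, 27 lost the call and 25 gained it, leaving out single libraries aside. The difference of Tgfbr3 between dorsal early anagen and competent telogen (0.36) was -4e-04 under median of ratios and -0.0342 under quantile scaling, and the cause was not tested. The interaction of Tgfb1 passed with a pseudocount of 0.1 (adjusted p = 0.0201), TPM (0.0466), median of ratios (0.0363) and quantile scaling (0.0352), and that of Tgfbr1 did not pass under median of ratios (0.1001) or quantile scaling (0.126). In the ear, Inhbb was called lower in the complex than in dorsal skin under median of ratios (-0.54, adjusted p = 0.00896), quantile scaling (-0.41, 0.0254) and with dorsal refractory telogen as the dorsal group (-1.20, 0.00013).

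Without competent telogen and ventral early anagen, chosen after seeing the data, 38 of 88 stage steps passed in place of 69 of 144, and 40 of 104 domain differences in place of 63 of 144, with fewer tests made by construction. When each library was left out in turn, 7 to 8 members had the interaction, 21 to 22 member tests of stages and 26 to 36 of domains passed, as did 64 to 71 stage steps, 57 to 71 domain differences and 19 to 19 differences in the ear. Of the pathway genes, 149 to 157 tests of stages and 123 to 141 ear differences passed.

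Deviations of libraries with the same replicate number had a median correlation of 0.003 (327 pairs, 9 of them over 0.1). For other numbers it was -0.0028 (544 pairs, 16 of them over 0.1). The pairs were pooled over all groups, and most joined different stages. Whether the domains of a stage shared animals was therefore not tested. With the replicate block, 7 interactions, 21 tests of stages, 30 of domains, 68 stage steps, 61 domain differences, 19 ear differences, 152 pathway tests of stages and 131 pathway ear differences passed. The calls lost were those of Tgfb2 from ventral mid to late anagen, of Inhba between ventral and chin mid anagen and of Tgfbr2 between ventral and chin late anagen.

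Counts over all genes moved by over 1.5 times mainly in separate fits, which estimate the spread from fewer libraries. Those for domains went from 8092 to 2635 in mid anagen, 4432 to 7002 in late anagen and 8972 to 3852 in refractory telogen. Ventral against chin went from 4699 to 1045, 3319 to 5729 and 6534 to 2309 at these stages, dorsal against chin from 3652 to 777, 4144 to 6311 and 7394 to 4055, and dorsal against ventral from 6011 to 2691, 667 to 2248 and 2905 to 629. Stage steps went from 454 to 102 (chin, into early anagen), 3857 to 2476 (chin, into mid anagen), 2792 to 1804 (chin, into catagen), 1261 to 681 (ventral, into catagen) and 570 to 1109 (dorsal, into late anagen). The step into chin mid anagen was 6093 under TPM and 2486 under median of ratios, and ventral against chin catagen went from 1103 to 1724 without the filter. Without competent telogen and ventral early anagen, the count for domains in early anagen went from 10965 to 5294 and that for stages in ventral skin from 14912 to 9807.

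Leaving out 1 library moved 36 such counts over 17 comparisons by over 1.5 times. The count for domains in late anagen (4432) was then 2379 to 2614, and chin steps were 203 (into early anagen), 2247 (mid anagen), 2448 to 2712 in place of 4197 (late anagen) and 1152 to 1166 (catagen). Ventral steps were 3246 in place of 5142 (late anagen) and 701 to 773 (catagen), and the dorsal telogen stages 3007 to 3130 in place of 4709. Ventral against chin was 3025 to 3067 in place of 4885 (competent telogen), 2020 to 2568 (mid anagen), 1475 to 1899 (late anagen) and 570 to 1718 (catagen). Dorsal against chin was 3154 to 3584 in place of 5739 (early anagen) and 2235 to 2347 (late anagen), and dorsal against ventral 4006 (mid anagen), 360 to 415 (late anagen) and 1467 to 5175 (refractory telogen).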
